A study of Mus musculus with 18 samples.

Results

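The expression of 10 genes of early B cell development was measured in naive, germinal center and CD138+ bone marrow cells of mice with and without Dnmt3a and Dnmt3b, the enzymes that methylate DNA de novo. The genes were taken by symbol from a table of 21761 genes. They were Dntt, Rag1 and Rag2 of V(D)J recombination, Vpreb1, Vpreb2 and Igll1 of the surrogate light chain, Vpreb3, the receptor gene Il7r, and the transcription factor genes Erg and Sox4. Each had 1 row, and 9 of the 10 reached the level needed for testing. The remaining gene, Erg, had no read in any library. The question was how far transcripts of pro-B and pre-B cells were present in each sort, above all in the CD138+ bone marrow sort, since CD138 is also known on some bone marrow B cell precursors.

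RNA-seq covered 18 libraries, 3 for each of 6 groups. Naive B cells (nB) were B220+ GL7- Fas- lymph node cells of unimmunized mice. For GCB, the cells of the germinal center, PE-binding cells with B220, GL7 and Fas on their surface were taken 30 days after the fluorescent protein phycoerythrin (PE) was given in complete Freund's adjuvant, with 2 mice pooled for each library. For BMPC, the bone marrow plasma cells, sorting was on CD138, 30 days after the same immunization. The panels included stains for CD11b, CD11c, CD90.2 and Ly6-G, meant for the removal of autofluorescent cells, which would also take out most myeloid and T cells. All mice were 8 to 12 weeks old. The labels give their background as B6;129S4-Dnmt3atm3.1Enl Dnmt3btm5.1Enl/Mmnc, with an allele number for Dnmt3a that differs from that in the study's methods, and all carried floxed alleles of both genes (Dnmt3a fl/fl Dnmt3b fl/fl). Dnmt3-deficient mice also carried a Cre allele, which Dnmt3-sufficient mice lacked. The Cre is expressed in B lineage cells from the bone marrow on, so cells of other lineages keep both enzymes, and B cell precursors may be sampled before recombination is complete. Only the catalytic part of each gene is floxed, so total reads on Dnmt3a and Dnmt3b do not check the labels. Dnmt3a was at 2.35 to 5.18 FPKM in Dnmt3-sufficient and 2.24 to 4.34 in Dnmt3-deficient nB, and at 0 to 0.768 and 0.0544 to 3.08 FPKM in BMPC. Dnmt3b was at 1.18 to 6.41 and 0.521 to 8.15 FPKM in nB and at 0 to 1.37 and 0 to 9.29 in BMPC. In GCB, Dnmt3a was at 0.0232 to 0.378 and 0.213 to 0.362 FPKM and Dnmt3b at 0 to 0.676 and 0.744 to 1.10.

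B cells are made in the bone marrow in steps. Pro-B cells cut and join the gene segments of the heavy chain with the Rag1 and Rag2 nuclease, and terminal deoxynucleotidyl transferase, the product of Dntt, adds bases at the joints. In pre-B cells the new heavy chain pairs with the surrogate light chain, made of the Igll1 product and a Vpreb protein, to form the pre-B cell receptor, while signals through the interleukin-7 receptor keep the cells alive and dividing. These genes are switched off as cells mature, and Dntt is also known in early lymphoid progenitors and in thymocytes.

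FPKM values, which scale the reads of a gene by its exon length and by the library total, were compared on the log2(FPKM + 1) scale with limma. Called genes had an adjusted p no higher than 0.05 together with a log2 change of at least 1 in size. A group at 3 reads or fewer in every library was taken as at the floor. The BMPC libraries were shallow, with 1355231 to 3803197 reads on genes against at least 6692516 in every nB and GCB library, and a single read weighed more in them. The CD138+ label was met by the markers of plasma cells. Jchain, which joins IgM and IgA chains, lay at 16190 to 46610 FPKM in BMPC, the CD138 gene Sdc1 at 34.5 to 107.7, and the sum of 8 plasma cell markers at 19110 to 51950. In bulk libraries, fewer cells of a type and less RNA per cell cannot be told apart.

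The plot of all tested members by library shows Dntt, Igll1 and Il7r separated between BMPC and the other cell types, and the remaining members absent, scattered or, for Vpreb3, high throughout.

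**Figure D1:**
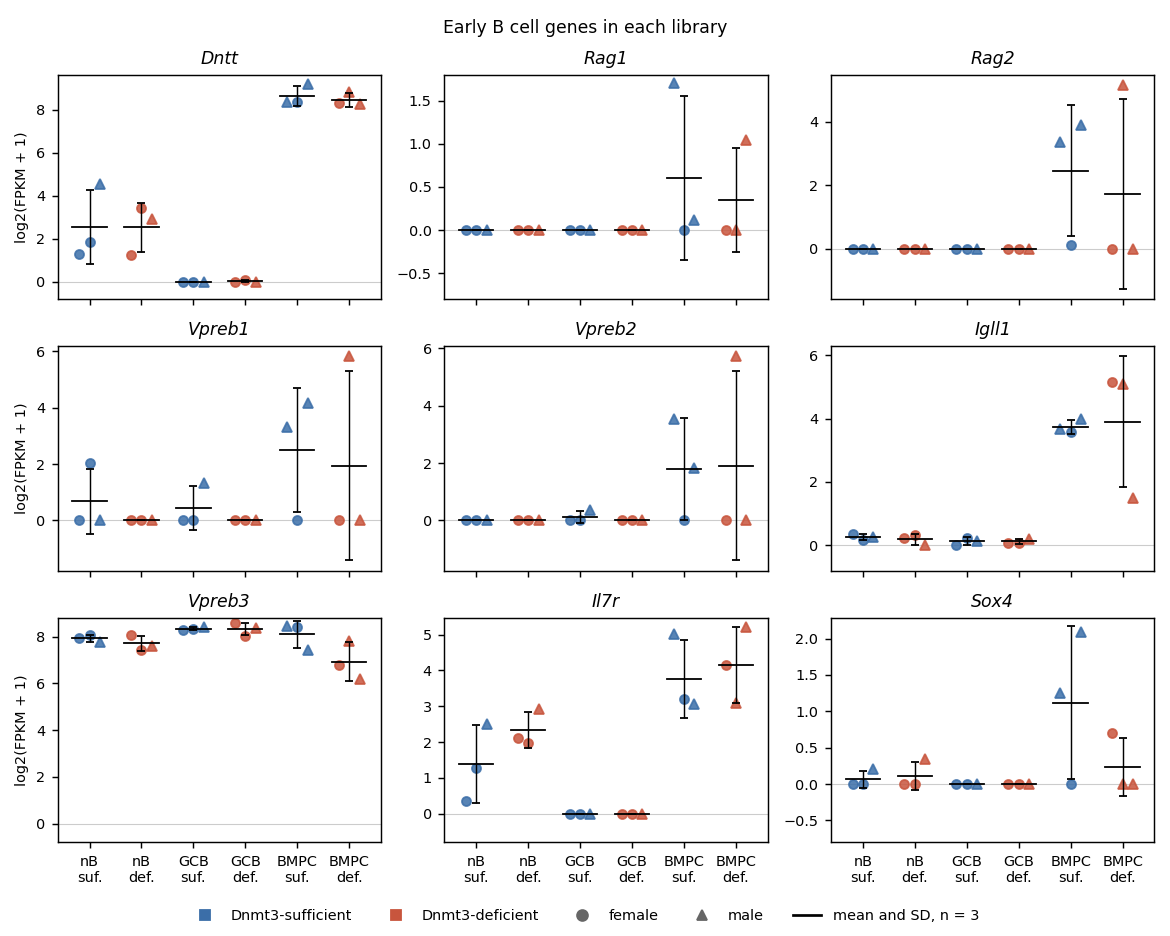
Each panel plots 1 gene, with log2(FPKM + 1) on the vertical axis and the 6 groups on the horizontal axis. Points are libraries (circles female, triangles male), and bars give the mean and SD of 3 libraries. Dntt lay at 305 FPKM or more in every BMPC library, whereas Rag2, Vpreb1 and Vpreb2 exceeded 1 FPKM in only 3 of the 6. Vpreb2 rested on 4 reads in Dnmt3-sufficient replicate 3.

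Dntt was the most abundant of the V(D)J genes and the member that separated the cell types most. In Dnmt3-sufficient BMPC it was measured at 329, 330.0 and 581 FPKM (1537, 2673 and 4494 reads), with a mean of 413 ± 146 (SD, n = 3). In Dnmt3-deficient BMPC it was at 315, 450 and 305 FPKM (1096, 1300 and 1474 reads), with a mean of 357 ± 81.0 (SD, n = 3). All 6 libraries were thus high, the genotypes overlapped, and Dntt ranked between 187 and 331 among the 21761 genes of each BMPC library. In nB it was at 1.47, 2.58 and 22.3 FPKM (Dnmt3-sufficient) and at 1.41, 9.70 and 6.51 FPKM (Dnmt3-deficient), from 21 to 426 reads per library. Among GCB libraries, a single Dnmt3-deficient one held 1 read (0.0581 FPKM), and the other 5 held none. The order was therefore BMPC, then nB, then GCB, with no overlap between these steps and with overlap of the genotypes at each step.

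Between BMPC and nB, mean Dntt FPKM differed 47.1-fold in Dnmt3-sufficient and 60.8-fold in Dnmt3-deficient cells. Dntt was higher in BMPC by 6.08 ± 0.69 (SE) on the log2(FPKM + 1) scale in Dnmt3-sufficient cells (adjusted p = 4.38e-06, limma) and by 5.93 ± 0.69 in Dnmt3-deficient cells (adjusted p = 6.31e-06). Against GCB it was at least 2437-fold higher in Dnmt3-sufficient BMPC, with each GCB library set to 3 reads, and the log2 difference was 8.64 ± 0.69 (adjusted p = 1.3e-07). In Dnmt3-deficient cells the log2 difference was 8.43 ± 0.69 (adjusted p = 1.43e-07). These calls held under all 28 alternatives tried.

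Dntt was also lower in GCB than in nB, with a difference of -2.56 ± 0.69 on the log2 scale in Dnmt3-sufficient cells (adjusted p = 0.0167) and of -2.51 ± 0.69 in Dnmt3-deficient cells (adjusted p = 0.0204). Without the nB library of Dnmt3-sufficient replicate 3, at 22.3 FPKM, the first difference was -1.57 and did not pass (adjusted p = 0.09), nor did it without GCB replicate 1 (0.052). The second did not pass without nB replicate 2 (0.101) or 3 (0.0814) or without any 1 of the 3 GCB libraries (0.0527 to 0.0635). In that nB library, Siglech, a receptor of plasmacytoid dendritic cells, was at 99.1 FPKM, against 43.6 and 22.6 in the other Dnmt3-sufficient nB libraries. In the Dnmt3-deficient nB libraries Siglech was at 36.5, 115 and 57.0 FPKM where Dntt was at 1.41, 9.70 and 6.51. All 6 markers of plasmacytoid dendritic cells were above 1 FPKM in every nB library, with sums of 135 to 297. These cells carry B220, on which nB were sorted, and at a low level CD11c, which was stained for removal. In BMPC, where Dntt was far higher, the same 6 markers summed to 141.5 to 298, with Siglech at 0 to 39.7, Bst2 at 76.2 to 153, Cox6a2 at 22.1 to 121 FPKM and Klk1 at 0 in all 6 libraries. Their part in the Dntt level was not tested.

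Rag1 and Rag2, which encode the subunits of the recombinase, had no read in any of the 12 nB and GCB libraries. Rag2 was detected in 4 of the 6 BMPC libraries. It was at 9.26, 0.0775 and 14.0 FPKM (69, 1 and 172 reads) in Dnmt3-sufficient BMPC. In Dnmt3-deficient BMPC it was at 34.8 FPKM (160 reads) in replicate 2 and had no read in the other two, where 3 reads would be 0.542 and 0.390 FPKM. The Dnmt3-sufficient BMPC libraries did not overlap nB, but only through the 1 read of replicate 2, where 3 reads would be 0.233 FPKM. That library thus cannot be told from nB. The spread was wide and the log2 difference of 2.46 ± 1.06 did not pass (adjusted p = 0.0757, limma). The difference from GCB did not pass either (adjusted p = 0.0911).

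Rag1 was lower still, at 2.25 and 0.0827 FPKM (33 and 2 reads) in Dnmt3-sufficient BMPC replicates 1 and 3 and at 1.06 FPKM (16 reads) in Dnmt3-deficient BMPC replicate 3. The highest Rag1 value was thus found in a library that also held Rag2, while the Dnmt3-deficient library with Rag1 held no Rag2 read and the one with most Rag2 held no Rag1 read. Rag1 and Rag2 share 80 and 208 exon bases with B230118H07Rik, a gene between them, so reads on those stretches are uncertain. Rag1 (gene ID 19373) lies at chr2:101478439-101489658 on the minus strand and Rag2 (19374) at chr2:101464875-101472685 on the plus strand, while Dntt (21673) lies at chr19:41103765-41134013 on the plus strand (mm9, GENCODE vM1).

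The surrogate light chain genes map to chromosome 16 in mm9. Igll1 (gene ID 16136) lies at chr16:16860764-16864078 and Vpreb1 (22362) next to it at chr16:16868495-16870936, both on the minus strand. Vpreb2 (22363) lies apart at chr16:17980514-17981366 on the plus strand. Vpreb1 and Vpreb2 are near-identical copies. Their transcripts differ at 20 of 766 aligned bases (97.39% identical) and their coding sequences at 9 of 429 (97.9%). The coding stretch of 300 bases with most differences is given for both, since it shows how little sequence tells their reads apart. It runs from coding base 79 to 378, 5′ to 3′ on the transcript strand, and capitals mark the 6 bases that differ.
Vpreb1: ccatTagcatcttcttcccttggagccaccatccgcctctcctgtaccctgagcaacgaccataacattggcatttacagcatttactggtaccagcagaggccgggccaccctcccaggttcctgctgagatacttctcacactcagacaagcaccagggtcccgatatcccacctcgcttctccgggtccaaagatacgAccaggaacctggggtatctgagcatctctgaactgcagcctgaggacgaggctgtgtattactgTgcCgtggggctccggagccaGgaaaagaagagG
Vpreb2: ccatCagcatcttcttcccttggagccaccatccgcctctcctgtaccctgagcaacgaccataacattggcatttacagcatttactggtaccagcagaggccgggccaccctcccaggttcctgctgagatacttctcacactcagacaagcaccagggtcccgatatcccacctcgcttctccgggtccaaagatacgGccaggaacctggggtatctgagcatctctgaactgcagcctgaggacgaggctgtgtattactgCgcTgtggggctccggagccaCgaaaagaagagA
Of the 50-base windows of the aligned transcripts, the length of a read here, 233 of 717 (32.5%) are the same in both genes. Vpreb2 was counted over 429 exon bases, the length of its coding sequence, where 162 of 380 windows (42.6%) are the same. A read from such a window cannot be assigned to either gene by its own sequence, and the authors kept at most 1 hit per read. Values of Vpreb1 and Vpreb2 are therefore best read together.

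Vpreb1 was at 8.89 and 16.9 FPKM (15 and 47 reads) in Dnmt3-sufficient BMPC replicates 1 and 3, at 0 in replicate 2, and at 55.7 FPKM (58 reads) in Dnmt3-deficient BMPC replicate 2, with 0 in replicates 1 and 3. Vpreb2 was at 10.6 and 2.57 FPKM (10 and 4 reads) and at 51.6 FPKM (30 reads) in the same 3 BMPC libraries and had no read in the other 3. The absence of Vpreb1 reads there allows up to 1.03, 2.39 and 1.72 FPKM, as the worth of 3 reads. A low Vpreb1 signal also appeared once in nB (3.06 FPKM, 18 reads) and once in GCB (1.54 FPKM, 10 reads). Of 1113 annotated Vpreb1 exon bases, 108 are shared with Top3b, a gene on the opposite strand. Strand use in counting is not stated, so such reads are uncertain. Vpreb1 was counted over 768 bases, and whether these include the shared ones was not checked. Neither gene was called in any comparison, and both groups of BMPC overlapped nB and GCB through their libraries at 0.

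Igll1, which encodes lambda5, the constant part of the surrogate light chain, was present in all 6 BMPC libraries. It was at 11.8, 10.8 and 14.8 FPKM (56, 89 and 116 reads) in Dnmt3-sufficient BMPC and at 34.2, 32.7 and 1.83 FPKM (121, 96 and 9 reads) in Dnmt3-deficient BMPC. In nB it did not exceed 0.276 FPKM and in GCB 0.181 FPKM, with 0 to 4 reads per library. BMPC thus lay above nB and GCB in every library, with Dnmt3-deficient replicate 3 far below the other 5.

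Igll1 was higher in BMPC than in nB by 3.48 ± 0.67 on the log2(FPKM + 1) scale in Dnmt3-sufficient cells (adjusted p = 0.000687, limma) and by 3.72 ± 0.67 in Dnmt3-deficient cells (adjusted p = 0.000419). It was higher than in GCB by 3.61 ± 0.67 (adjusted p = 0.000706) and 3.78 ± 0.67 (adjusted p = 0.000419). Both calls in Dnmt3-deficient cells were lost when only the groups compared were fitted (adjusted p = 0.0584 and 0.0561). Igll1 exceeded 1 FPKM only in BMPC libraries and entered the test through them. A higher value in BMPC was thus close to fixed in advance, and these p-values describe the gap rather than test it.

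Vpreb3 encodes a protein related to Vpreb1 that binds new immunoglobulin chains in the cell, and unlike its relatives it is known in mature B cells as well. It was abundant in all 18 libraries. In nB it was at 247, 269 and 216 FPKM (Dnmt3-sufficient) and 270.5, 172 and 195 FPKM (Dnmt3-deficient). In GCB it was at 308, 323 and 343 FPKM (Dnmt3-sufficient) and 378, 263 and 332 FPKM (Dnmt3-deficient). The Dnmt3-sufficient GCB libraries lay above all Dnmt3-sufficient nB libraries, by a log2 difference of 0.42 that did not pass (adjusted p = 0.496).

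In Dnmt3-sufficient BMPC, Vpreb3 was at 354, 337 and 171 FPKM (mean 287 ± 101, SD, n = 3), and in Dnmt3-deficient BMPC at 110, 227 and 71.1 FPKM (mean 136 ± 81.0). The genotypes overlapped in BMPC. Vpreb3 was lower in Dnmt3-deficient BMPC than in Dnmt3-deficient GCB, with a difference of -1.40 ± 0.34 on the log2 scale (adjusted p = 0.00485, limma), with no overlap. Vpreb3 (gene ID 22364) lies at chr10:75405802-75412402 on the plus strand of mm9.

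Il7r encodes the alpha chain of the interleukin-7 receptor, which is known on B cell precursors and also on T cells. In BMPC it was at 31.6, 8.14 and 7.42 FPKM (291, 130 and 113 reads) in Dnmt3-sufficient and 16.9, 7.56 and 36.0 FPKM (116, 43 and 342 reads) in Dnmt3-deficient libraries. In nB it was at 0.285, 1.43 and 4.72 FPKM and at 3.34, 2.92 and 6.55 FPKM. None of the 6 GCB libraries held an Il7r read. BMPC lay above nB without overlap in each genotype, and both lay above GCB.

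Il7r was higher in BMPC than in nB by 2.38 ± 0.64 on the log2(FPKM + 1) scale in Dnmt3-sufficient cells (adjusted p = 0.00809, limma) and by 1.82 ± 0.64 in Dnmt3-deficient cells (adjusted p = 0.0334), which is 7.32-fold and 4.72-fold between mean FPKM. It was at least 182-fold and at least 237-fold higher than in GCB, with each GCB library set to 3 reads, and log2 differences were 3.76 ± 0.64 (adjusted p = 0.00035) and 4.16 ± 0.64 (adjusted p = 0.000129). Between GCB and nB, Il7r was lower in GCB (-2.33 ± 0.64) in Dnmt3-deficient cells (adjusted p = 0.0211). In Dnmt3-sufficient cells the difference was -1.39 ± 0.64 with no overlap, which did not pass (adjusted p = 0.179). The difference between Dnmt3-deficient BMPC and nB passed in 18 of 28 alternatives, and not without nB replicate 1 (adjusted p = 0.0926) or 2 (0.0994) or BMPC replicate 1 (0.0596) or 3 (0.134). In Dnmt3-sufficient cells it did not pass with a fit to only the groups compared (0.101) or without nB replicate 1 (0.0504), and in Dnmt3-deficient cells the call between GCB and nB was lost without nB replicate 1 (0.0502) or 3 (0.0956) or any 1 GCB library (0.0594 to 0.0671).

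Markers of T cells were present beside Il7r. The sum of 8 T cell markers was 74.3 to 204 FPKM in Dnmt3-sufficient and 127 to 218 in Dnmt3-deficient BMPC, and 62.9 to 175 and 105 to 168.5 in nB. The list did not move as one. Cd3d was at 15.5 to 65.4 and Cd3g at 24.5 to 112 FPKM in BMPC, against 4.80 to 12.6 and 5.26 to 38.9 in nB. Cd3e overlapped, at 0 to 35.0 FPKM in BMPC and 4.37 to 23.5 in nB, and mean Lck was lower in BMPC (32.9 and 16.2 FPKM) than in nB (59.2 and 81.1). The CD90.2 gene Thy1, a target of the stains for removal, was at 0 to 9.36 FPKM in BMPC and 0 to 3.53 in nB. Cd8b1 was at 0 in all 6 BMPC libraries, Cd4 at 0 in the Dnmt3-sufficient and Cd8a at 0 in the Dnmt3-deficient ones. The part of T cells in the Il7r level was not tested. Il7r (gene ID 16197) lies at chr15:9435916-9459631 on the minus strand of mm9.

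Erg (gene ID 13876, chr16:95580776-95808200, minus strand, mm9), a factor of early progenitors and pro-B cells, had no read in any library, which allows at most 0.139 to 0.920 FPKM as the worth of 3 reads. Sox4 (20677, chr13:29040788-29045582, minus strand), a factor that early B cell development needs, was at 1.39, 0 and 3.27 FPKM (9, 0 and 35 reads) in Dnmt3-sufficient BMPC and at 0.622 FPKM (3 reads), 0 and 0 in Dnmt3-deficient BMPC. It did not exceed 0.266 FPKM in nB and had no read in GCB. Sox4 was called higher in Dnmt3-sufficient BMPC than in nB (log2 difference 1.05 ± 0.39, adjusted p = 0.0421) and than in GCB (1.12 ± 0.39, adjusted p = 0.0401), although the groups overlapped through the library at 0. Like Igll1, Sox4 exceeded 1 FPKM only in BMPC libraries, so a higher value there was close to fixed in advance. The call against nB held in 10 of 27 alternatives and that against GCB in 16 of 27, and both were lost, among others, without BMPC replicate 3 (log2 differences 0.56 and 0.63, adjusted p = 0.216 and 0.187) or replicate 1 (adjusted p = 0.0939 and 0.0891). Of 4795 Sox4 exon bases, 2616 are shared with Gm17419, a noncoding RNA on the opposite strand, and strand use in counting is not stated, so these reads are uncertain.

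The members did not move together across the 6 BMPC libraries. The heat map of the BMPC libraries shows Rag2, Vpreb1 and Vpreb2 in the same 3 libraries, Dnmt3-sufficient replicates 1 and 3 and Dnmt3-deficient replicate 2, while Dntt was high in all 6 and Igll1 in 5. These 3 libraries were from male mice, as was Dnmt3-deficient replicate 3, which held no Rag2, Vpreb1 or Vpreb2 read. The 2 female libraries held 1 read of the 3 genes in all. Male sex and the presence of these genes thus went together in 5 of 6 libraries, and the part of sex was not tested.

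**Figure D2:**
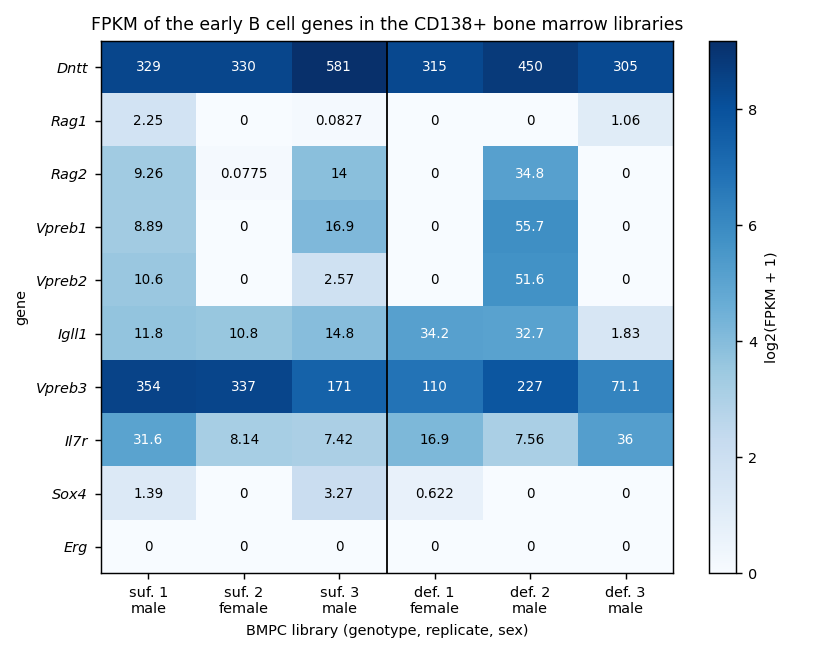
Rows are the 10 genes and columns the 6 BMPC libraries, split by genotype and marked by sex. Cells are coloured by log2(FPKM + 1) and carry the FPKM value. Rag2, Vpreb1 and Vpreb2 are filled in the same 3 columns, with 34.8, 55.7 and 51.6 FPKM in Dnmt3-deficient replicate 2.

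Across the 6 BMPC libraries, which differ in depth, log2 values of Rag2 and Vpreb1 had a Pearson r of 0.998, Vpreb1 and Vpreb2 of 0.926, and Rag2 and Vpreb2 of 0.922. Dntt had an r of 0.756 with Vpreb1, 0.350 with Igll1 and -0.694 with Il7r. Rag1 and Il7r had an r of 0.842, and both were highest in Dnmt3-sufficient replicate 1 and Dnmt3-deficient replicate 3. These values describe 6 points, several of them at 0. Since many reads cannot be told apart between Vpreb1 and Vpreb2, the correlations with these genes are not separate observations. The depth of the 3 libraries with Vpreb1 (1355231 to 3629318 reads) covered much of the range of the 3 without it (1632925 to 3803197 reads).

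Counting the genes whose FPKM exceeded 1, Dnmt3-sufficient BMPC libraries held 9, 4 and 8 of the 10 members and Dnmt3-deficient ones 4, 7 and 5. In nB 2 to 4 members passed that level, and in GCB 1 or 2. The summed FPKM of Dntt, Rag1, Rag2, Vpreb1, Vpreb2 and Igll1 was 341 to 630 in Dnmt3-sufficient and 308 to 625 in Dnmt3-deficient BMPC, against 1.58 to 22.5 in nB and 0 to 1.92 in GCB. Dntt alone made up 72.0% to 99.1% of that sum in BMPC. The sum therefore mostly restates Dntt.

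The counts of called members were set beside the share of all genes called. In Dnmt3-sufficient cells, 4 of the 9 tested members were higher in BMPC than in nB and none lower, where 9.74% of all 11522 tested genes were higher and 27.6% lower. Among Dnmt3-deficient cells 3 of 9 were higher and none lower, where 6.85% of genes were higher and 30.6% lower. The median log2 difference of the members was 1.81 and 1.82, against -0.70 and -0.84 over all tested genes. Against GCB, 4 of 9 members were higher in Dnmt3-sufficient BMPC (6.67% of genes higher, 20.9% lower). In Dnmt3-deficient BMPC 3 were higher and 1 lower (6.14% and 26.1%). Median log2 differences were 2.04 and 1.91 for members and -0.56 and -0.73 for all genes. Rag1, Rag2, Vpreb2, Igll1 and Sox4 exceeded 1 FPKM only in BMPC libraries, and so entered the test through the group where they were high. For these genes a higher value in BMPC was close to fixed in advance. The counts and medians against nB and GCB therefore describe the members and do not test them as a set.

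Between GCB and nB, 1 of 9 members was lower and none higher in Dnmt3-sufficient cells, where 7.22% of genes were higher and 6.93% lower. Among Dnmt3-deficient cells 2 were lower and none higher, where 6.31% were higher and 6.61% lower. BMPC and GCB were compared with the same nB libraries, and BMPC was compared with the same GCB libraries, so these counts are not independent. The plot of member changes gives each difference with its SE.

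**Figure D3:**
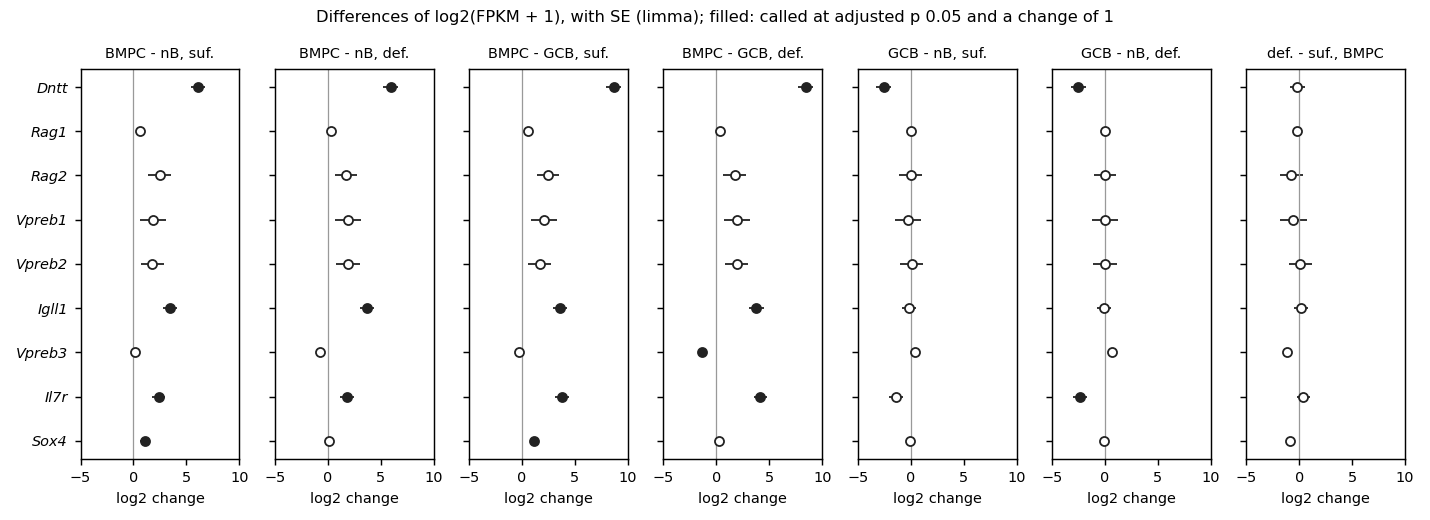
Each panel is 1 comparison, with the difference of log2(FPKM + 1) on the horizontal axis and 9 genes on the vertical axis. Bars are SE and filled points passed an adjusted p of 0.05 and a change of 1. Dntt reached 6.08 and 5.93 against nB, and no point is filled in the genotype panel for BMPC.

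None of the members was called between genotypes, by limma, in nB, GCB or BMPC. In GCB, however, Dntt, Rag1, Rag2, Vpreb2, Igll1, Il7r and Sox4 were at the floor in both genotypes, as were Rag1, Rag2 and Vpreb2 in nB. A call was not possible for these genes there. Of all tested genes, 0.0521% were called between genotypes in nB, 0% in GCB, and in BMPC 3.98%. At an unadjusted p under 0.05 there was no member in nB (312 of all genes), no member in GCB (124 genes) and 2 members in BMPC (2342 genes). These 2 were Vpreb3, with a log2 difference of -1.17 (adjusted p = 0.0605, limma), and Sox4, with -0.88 (adjusted p = 0.208, limma), both lower in Dnmt3-deficient cells and named after their values were seen. The intervals were wide. That of Dntt in BMPC (95% confidence interval, log2 scale, Dnmt3-deficient minus Dnmt3-sufficient) ran from -1.63 to 1.27, and that of Igll1 from -1.25 to 1.59. Both rest on 1 spread per gene over all 18 libraries. Igll1 varied far less in nB and GCB than in Dnmt3-deficient BMPC, so its interval is likely too narrow for BMPC.

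Leaving out single BMPC libraries called 1 member in 4 of 6 cases. Vpreb3 was lower in Dnmt3-deficient BMPC (-1.62) without Dnmt3-deficient replicate 2 (adjusted p = 0.00402) and also (-1.50) without Dnmt3-sufficient replicate 3 (adjusted p = 0.017). Sox4 was lower (-1.44) without Dnmt3-sufficient replicate 2 (adjusted p = 0.0113), and Igll1 was higher by 1.37 without Dnmt3-deficient replicate 3 (adjusted p = 0.0273). The genotype effect did not differ between cell types for any member by limma's interaction test. For members at the floor in a cell type, a difference could come only from the other cell type. The background of called genes was 0% for GCB against nB, 0.555% for BMPC against nB and 0.425% for BMPC against GCB. At an unadjusted p under 0.05 there were 0, 0 and 1 members, and the smallest adjusted p values of a member were 1, 0.451 and 0.454.

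Other genes of the early B cell programme were followed in 4 lists. In the list of 9 other V(D)J and end joining genes, 2 were higher and 1 lower in Dnmt3-sufficient BMPC than in nB (9.74% and 27.6% of all genes), and 3 were higher and none lower in Dnmt3-deficient BMPC (6.85% and 30.6%). The median log2 difference of the list was -1.45 and -1.07, below the -0.70 and -0.84 of all tested genes, so most of its members had lower values in BMPC. The genes that rose in both were Hmgb2 (log2 difference 3.52 and 2.65) and Hmgb1 (1.67 and 1.44), which bend DNA during cutting by Rag1 and Rag2 and have general roles in chromatin, with Xrcc6 (1.30), which encodes the Ku70 end-binding protein, added in Dnmt3-deficient cells. Lig4, the ligase of end joining, was lower in Dnmt3-sufficient BMPC (-1.45). Hmgb2 and Hmgb1 were also higher in GCB than in nB in both genotypes (Hmgb2 by 4.35 and 4.25, Hmgb1 by 1.86 and 1.85), where Dntt was lower. Levels of cell cycle genes were higher in BMPC too, with sums of 6 markers of 142 to 347 FPKM against 1.36 to 16.6 in nB, and their part in these values was not tested.

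Of 12 signalling genes of the pre-B cell and interleukin-7 receptors, none was higher in BMPC than in nB, 8 were lower in Dnmt3-sufficient and 7 in Dnmt3-deficient cells, where 27.6% and 30.6% of all genes were lower. The list medians were -1.91 and -1.71. The kinases Blk (-5.35) and Syk (-4.27), which act below the B cell receptors, and Jak1 (-2.53) and Jak3 (-2.35), which act below the interleukin-7 receptor, had the largest falls in Dnmt3-sufficient cells. In Dnmt3-deficient cells these were Syk (-5.13), Plcg2 (-3.23), Jak1 (-3.18) and Jak3 (-2.44). Blk was uneven, at 0, 0.111 and 52.1 FPKM across the Dnmt3-sufficient BMPC libraries. It was at 16.4 to 40.6 FPKM in Dnmt3-deficient BMPC, where it was not called lower than in nB. Il2rg, the gene of the second chain of the interleukin-7 receptor, was also lower in BMPC than in nB (-1.84 and -1.59) and in GCB than in nB (-2.22 and -2.41). Il7r thus rose in BMPC where Il2rg, Jak1 and Jak3 fell.

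Of 13 early B lineage factors, Myb was higher in BMPC than in nB in both genotypes (log2 difference 2.98 and 2.81), at 7.17 to 48.0 FPKM in BMPC against 0.0625 to 3.03 in nB. Lower were 9 factors in Dnmt3-sufficient and 8 in Dnmt3-deficient cells (27.6% and 30.6% of all genes), with list medians of -1.58 and -1.55. The largest falls were those of Spib (-7.13 and -6.90), Ebf1 (-6.65 and -5.35), Pax5 (-5.74 and -5.88) and Irf8 (-3.43 and -4.15). Pax5, which commits precursors to the B lineage, and Spib were at 0 in all 6 BMPC libraries. Ebf1, which turns on Vpreb1 and Igll1 in pro-B cells, was at 0 to 0.578 FPKM in Dnmt3-sufficient and 0 to 7.10 in Dnmt3-deficient BMPC. The nB libraries held 94.5 to 137 FPKM of Ebf1. All 6 BMPC libraries thus held Dntt and Igll1 reads with no Pax5 read and with Ebf1 at no more than 7.10 FPKM.

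Of 12 other markers of pro-B and pre-B cells, 9 were tested. Enpep and Mme were at 0 in every library. Il2ra, at 0 to 3.63 FPKM in Dnmt3-deficient and at 0 in Dnmt3-sufficient BMPC, exceeded 1 FPKM in too few libraries. Bst1 was at 0 in every BMPC library, against up to 1.28 FPKM in nB and 3.09 in GCB. In BMPC 5 were higher than in nB in Dnmt3-sufficient and 3 in Dnmt3-deficient cells, and none was lower, where 9.74% and 6.85% of all genes were higher. The list medians were 1.69 and 0.44. Kit and Arpp21 entered the test only through BMPC libraries. Sdc1 (4.87 and 5.61 on the log2 scale), the CD138 gene on which the cells were sorted, and Cd93 (3.66 and 3.99), known on immature B cells and on plasma cells, had the largest rises. Kit, a receptor of progenitors and pro-B cells, rose by 1.69 and 2.30. Spn (CD43) rose by 2.01 in Dnmt3-sufficient cells. Kit was at 0 to 11.6 FPKM in Dnmt3-sufficient and 4.59 to 8.45 in Dnmt3-deficient BMPC, against at most 0.618 in nB and 0 in GCB. Several of these markers are thus shared with plasma cells or other progenitors.

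**Figure D4:**
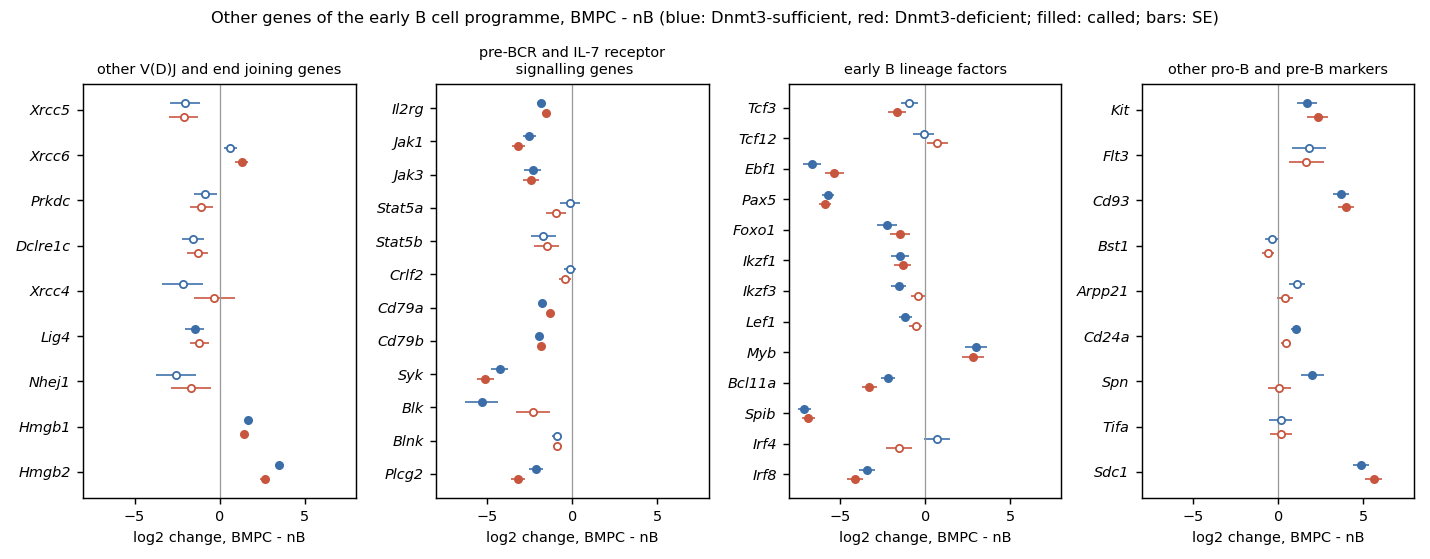
Each panel is 1 of 4 gene lists, with the log2(FPKM + 1) difference of BMPC minus nB on the horizontal axis. Blue marks Dnmt3-sufficient and red Dnmt3-deficient cells, bars are SE, and filled points were called. Spib, Ebf1 and Pax5 lie furthest left, at -7.13, -6.65 and -5.74 in Dnmt3-sufficient cells.

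Against GCB, 6.67% of all genes were higher and 20.9% lower in Dnmt3-sufficient BMPC, and 6.14% and 26.1% in Dnmt3-deficient BMPC. The V(D)J list had none higher and 1 lower in Dnmt3-sufficient BMPC and none higher and 3 lower in Dnmt3-deficient BMPC. The signalling list had 6 lower and none higher in each genotype. Of the factors, 3 were higher and 7 lower, and 1 higher and 8 lower. The other markers had 3 higher and none lower, and 3 higher and 2 lower (Cd24a and Bst1). Between GCB and nB, where 6.31% to 7.22% of all genes were higher and 6.61% to 6.93% lower, Dnmt3-sufficient cells had 3 V(D)J genes higher and none lower, 2 signalling genes lower, 1 factor higher and 2 lower, and 1 marker higher. Dnmt3-deficient cells had 2 V(D)J genes higher, 2 signalling genes lower, 1 factor higher and 1 lower, and 2 markers higher, led by Flt3 (4.10), a receptor of early progenitors. By limma, no gene of the 4 lists was called between genotypes in nB, GCB or BMPC.

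Markers of other bone marrow cells were present in the BMPC libraries beside Dntt. The stem and progenitor marker Cd34 was at 14.6 to 61.0 FPKM in every BMPC library and had no read in nB or GCB, while Mecom, which marks stem cells, was at 0 in all 6. Between these, Meis1 was at 0 to 5.12 FPKM in Dnmt3-sufficient and 0 to 14.6 in Dnmt3-deficient BMPC, Hlf at 0 to 0.179 and 0 to 7.29, and Gata2 at 0 and 0 to 6.84, against at most 0.988 FPKM of any of them in nB and GCB. The 7 neutrophil markers, at 0 in all nB libraries, summed to 526, 63.4 and 141 FPKM in Dnmt3-sufficient and 9.37, 582 and 535 in Dnmt3-deficient BMPC. Neutrophils carry CD11b and Ly6-G, both stained for removal. In the same order of libraries Dntt was at 329, 330.0 and 581 FPKM and at 315, 450 and 305 FPKM. Of the 3 erythroid markers in the table, the sum was 68.4 to 224 and 59.0 to 67.5. The 6 thymus-like progenitor markers summed to 12.8 to 30.5 and 3.90 to 25.2 FPKM in BMPC, against 32.5 to 67.2 in nB. Most of the nB sum was Cd1d1, which B cells also express (means 45.6 and 50.6 FPKM in nB, 6.42 and 12.7 in BMPC). Gata3 had the opposite order, with means of 6.63 and 4.55 FPKM in BMPC and 0.795 and 1.12 in nB. Mean Tcf7 was 5.81 and 0.260 in BMPC and 5.17 and 3.87 in nB, and Bcl11b was at 0 in all 6 BMPC libraries.

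Naive B cell markers were low in BMPC. The sum of 7 was 99.97 to 218 FPKM against 2709 to 2970 in nB, and Cr2, a complement receptor of mature B cells, was at 0 in all 6. The part of any of these cell types in the member values was not tested.

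**Figure D5:**
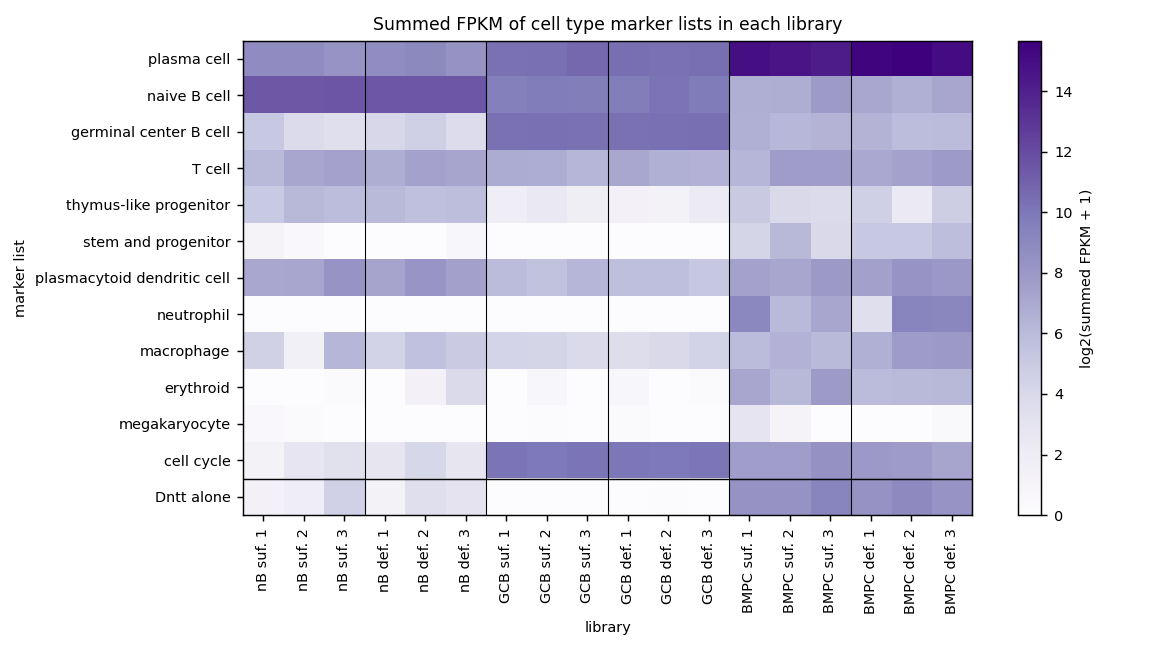
Rows are marker lists with Dntt alone in the last row, columns are the 18 libraries, and colour is log2 of the summed FPKM + 1. The BMPC libraries at the right are darkest for plasma cell markers (19110 FPKM or more) and carry neutrophil, erythroid and progenitor markers that nB and GCB lack or hold at low level.

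The 8 genes whose pattern over the 18 libraries was most like the summed 6 genes were Tmem176b (Pearson r = 0.982 on the log2 scale), Ly6c1 (0.980), Tmed10 (0.973), Ly6c2 (0.970), Tmbim4 (0.967), Krtcap2 (0.966), Rprl1 (0.964) and Ggh (0.963). Tmem176b had means of 433 and 529 FPKM in BMPC, 7.69 and 5.07 in nB and 1.52 and 1.77 in GCB, which is the same order as Dntt. With 6 BMPC libraries far from the other 12, such values mostly measure the gap between BMPC and the rest.

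Promoter sequences are shown for Dntt and Igll1, genes of pro-B cells that were called higher in BMPC, and for Vpreb1, the neighbour of Igll1, to set their levels beside the E box CAGGTG, the form bound by the Tcf3 product, and CCCNNGGG, the core of the motif that Ebf1 binds. Each is the 250 bases before the transcription start in RefSeq (GRCm38.p6), 5′ to 3′ on the strand of the gene, with matches in capitals. They span chr19:41029025-41029274 (plus) for Dntt, chr16:16863986-16864235 (minus) for Igll1 and chr16:16869256-16869505 (minus) for Vpreb1.
Dntt: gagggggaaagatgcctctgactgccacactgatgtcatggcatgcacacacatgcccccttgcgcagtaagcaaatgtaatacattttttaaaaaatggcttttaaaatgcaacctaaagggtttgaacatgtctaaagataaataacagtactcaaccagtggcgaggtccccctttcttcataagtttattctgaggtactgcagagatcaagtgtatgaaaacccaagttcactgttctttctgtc
Igll1: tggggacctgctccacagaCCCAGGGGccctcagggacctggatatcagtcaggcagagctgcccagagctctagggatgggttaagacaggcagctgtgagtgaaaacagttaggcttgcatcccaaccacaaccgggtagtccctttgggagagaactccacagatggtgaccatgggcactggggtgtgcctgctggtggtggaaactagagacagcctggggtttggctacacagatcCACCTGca
Vpreb1: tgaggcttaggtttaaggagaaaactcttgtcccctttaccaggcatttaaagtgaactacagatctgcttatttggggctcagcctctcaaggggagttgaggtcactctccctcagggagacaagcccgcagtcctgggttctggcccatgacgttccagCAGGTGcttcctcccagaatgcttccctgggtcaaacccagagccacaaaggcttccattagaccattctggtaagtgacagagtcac
Searched on both strands, Dntt had no match to either motif, Vpreb1 had 1 CAGGTG, and Igll1 had 1 CAGGTG (read as CACCTG on the gene's strand) and 1 CCCNNGGG. All 10 members were found among these promoters. CAGGTG was also in Rag1 and Vpreb2 (1 each) and CCCNNGGG in Erg (1), and the other 4 members had neither. Among all 27025 promoters of this length, 4620 (17.1%) held CAGGTG and 3150 (11.7%) held CCCNNGGG. The 2 motifs did not overlap in the members shown.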

How the data were processed

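Total RNA of sorted cells (5000 per library) was copied to cDNA, amplified and sequenced as 50-base read pairs. Per the study's methods, the authors mapped reads to mm9 with TopHat, keeping at most 1 hit per read, and counted overlaps with exons of UCSC KnownGenes. Whether counting used strand is not given in the sources used here. The submitters' processing notes name edgeR 3.12.1, R 3.2.2 and Picard. The authors deposited FPKM, scaled by summed exon length and by the reads counted on the listed genes. Immunoglobulin genes other than Jchain and Igll1 are not used here. The table's columns of the authors' own comparisons (CPM, log fold changes, p-values, FDR and flags) were not used.

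Reads per gene were recovered from FPKM and exon length, and 100% of values were whole within 0.01 read. Floors cover counting error only, since amplified reads carry no molecular identifiers. Confidence intervals were made from the limma SE, which reflects 1 spread between libraries per gene, pooled over all cell types and not that of BMPC alone. The main test was limma 3.58.1 (R 4.3.3) with an intensity trend on log2(FPKM + 1), two-sided, with 1 mean per group over all 18 libraries and p-values adjusted after Benjamini and Hochberg. It covered 11522 genes whose FPKM exceeded 1 in 2 or more libraries. Log2 changes on this scale understate changes of low genes. A count model was not used, since the files hold FPKM, and voom on the recovered reads was an alternative. Also tried were a pseudocount of 0.1, fitting only the compared groups, a term for sex, library quality weights, no filter or one at FPKM 3 in 3 libraries, scaling by median of ratios, an adjusted p of 0.01, no minimum change, a replicate block in GCB and leaving out each library. The test was checked on a single simulated draw for each comparison tried, with the same dispersion in every library. It recovered most changed genes, and the share of false calls lay above the nominal rate, more so between the BMPC genotypes. BMPC libraries had lower quality weights than all others, which the draws left out, so the rate in these data is not known.

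Groups, replicates and sex came from the labels. Each nB and BMPC library was from 1 mouse. In GCB, libraries of both genotypes share the numbers F2, F3 and M1, and deviations of same-numbered libraries had correlations of -8.06e-05, -0.017 and 0.026, so they were not treated as pairs. Members were named with all values, with changes and p-values where they were called or groups did not overlap, and otherwise where stated. List genes were the called ones with the largest changes, at most 4 per list and comparison. Exceptions named for another reason are Il2rg, Xrcc6, Lig4 and levels given as background. Some list genes are not reported here and were left out of the marker sums. The members and lists were chosen with earlier results of these data known. Sequences came from RefSeq (GRCm38.p6) and the mm9 transcripts, and figures were drawn with matplotlib 3.10.9.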

Additional observations from a re-analysis of the deposited data

How the results depend on the processing

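No direction of a called member reversed under any alternative. Of the calls of single members, 290 held and 34 fell short with a library left out, and 152 held and 26 fell short under the other alternatives. With a fit to only the groups compared, the members called were 2 in place of 4 for Dnmt3-sufficient BMPC against nB, 1 in place of 3 for Dnmt3-deficient BMPC against nB, 2 in place of 4 for Dnmt3-deficient BMPC against GCB, and 0 in place of 1 for Dnmt3-sufficient GCB against nB. That last count was 2 with a pseudocount of 0.1, with voom and with a quality weight per library, and 0 at an adjusted p of 0.01, where Dnmt3-deficient GCB against nB also gave 0 in place of 2. The cause was not tested. With single libraries left out, the members called ranged from 2 to 6 for Dnmt3-sufficient BMPC against nB, 2 to 4 for Dnmt3-deficient BMPC against nB, 3 to 6 for Dnmt3-sufficient BMPC against GCB, 0 to 1 for Dnmt3-sufficient and 0 to 2 for Dnmt3-deficient GCB against nB, and 0 to 1 between genotypes in BMPC. Without Dnmt3-deficient BMPC replicate 2, Rag2 and Vpreb2 were also called in the Dnmt3-sufficient comparisons, which brought them to 6.

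List genes called in Dnmt3-sufficient GCB against nB were 14 with voom, 16 with only the groups compared and 16 with a quality weight, in place of 9, and 6 to 15 with single libraries left out. In Dnmt3-deficient GCB against nB they were 13, 13 and 14 in place of 8. For Dnmt3-deficient BMPC against GCB, fitting only the groups compared gave 15 in place of 23. Between genotypes in BMPC, leaving out single libraries gave 0 to 3 in place of 0. The Vpreb3 difference between Dnmt3-deficient BMPC and GCB did not pass with voom or with only the groups compared (highest adjusted p = 0.0742). Median of ratios scaling shifted the median of all genes by 0.15 for Dnmt3-deficient BMPC against nB and by 0.16 against GCB, and no member direction changed.

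With the replicate block, 0 members and 0 list genes were called between genotypes in GCB, as without it. Each group held 3 libraries, 1 spread per gene was taken over all cell types, and in the shallow BMPC libraries a member at 0 is known only to lie under the worth of 3 reads.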
